A study of Mus musculus with 3 samples.

Results

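Polymorphonuclear myeloid-derived suppressor cells (PMN-MDSCs) of the spleen were compared between tumor-bearing and wild-type mice, the pair in this series that shares the organ and differs in whether the mouse carried a tumor. The pair was chosen by the sample titles TB-SP-PMN-MDSCs and WT-SP-PMN-MDSCs and comprises 2 of the 3 arrays, 1 per group. The remaining array, of PMN-MDSCs from tumor tissue, is given only as an added value beside some transcripts. All mice were male C57BL/6 of 6 to 8 weeks, and neither the tumor model nor any pooling of animals is stated in the labels. An MDSC kit enriched the cells before they were sorted on CD11b and Ly6G. The isolation protocol in the labels names wild-type spleen and tumor tissue as sources, and the spleen of tumor-bearing mice appears in the sample labels alone. The antibody clone given for Ly6G, RB6-8C5, is commonly sold as anti-Gr-1 and also binds Ly6C. With 1 array per group there was no replicate, so nothing was tested and no p-value is given. A difference of at least 2-fold served as a descriptive size limit. The error beside a value comes from the SD between repeated spots of a probe, which is technical. It joins the SDs of the 2 arrays as the root of their summed squares.

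PMN-MDSCs are cells of the neutrophil lineage that expand in blood and spleen during tumor growth and can restrain T cells through arginase, reactive oxygen species and prostaglandins. In rodents the spleen is a site of extramedullary myelopoiesis, so splenic PMN-MDSCs of tumor-bearing hosts include cells made in that organ. Neutrophils rely on glycolysis for energy and on the pentose phosphate pathway for the NADPH that feeds the oxidative burst. Long intergenic noncoding RNAs (lincRNAs) are transcribed from loci between protein-coding genes and are often present at low levels and in few cell types.

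The arrays, Arraystar lncRNA arrays read in 1 colour, carried 60915 target probes. The share well above background was 73.7% (44870) with cells of tumor-bearing spleen and 76.8% (46765) with cells of wild-type spleen. The same flag marked 15 and 18 of 300 spots of negative probes, respectively. The dimmest target signals that carried it were 16.1 and 16.5 units. The 75th percentile of the signal, to which all levels below are relative, was 509 units in tumor-bearing and 698 units in wild-type spleen. In these files 15 genes are named, each by a RefSeq accession on 1 probe in 20 spots, and 1836 probes are named after lincRNA loci. None of the 48 marker genes listed for neutrophils and 9 other classes of cells had a named probe, so the labelled cell type was not checked against its markers.

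Over all probes the 2 spleen arrays differed widely. The wild-type array had 1256 spots with non-uniform local background against 49 on the tumor-bearing spleen and 56 on the tumor array, and their part in the differences was not tested. Of 42323 probes well above background on both, 11604 (27.4%) read at least 2-fold higher in tumor-bearing spleen and 9257 (21.9%) at least 2-fold lower, and 21462 lay within the limit. The distribution was lopsided. Moderate differences leaned upwards, with 7882 probes from 2-fold to 4-fold higher against 4351 lower by that much. Large ones leaned downwards, with 1423 probes at least 8-fold higher against 2424 at least 8-fold lower. The lowest and highest 10% of probes began at log2 differences of -2.21 and 1.89. The median difference was 0.29 after scaling and -0.16 on the unscaled signals, so a value near 0.29 is the middle of these arrays rather than 0. Scaled on the median of detected probes, 9836 probes were higher and 10143 lower. As the arrays read bulk RNA, fewer cells that hold a transcript and less of it per cell cannot be told apart.

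**Figure D1:**
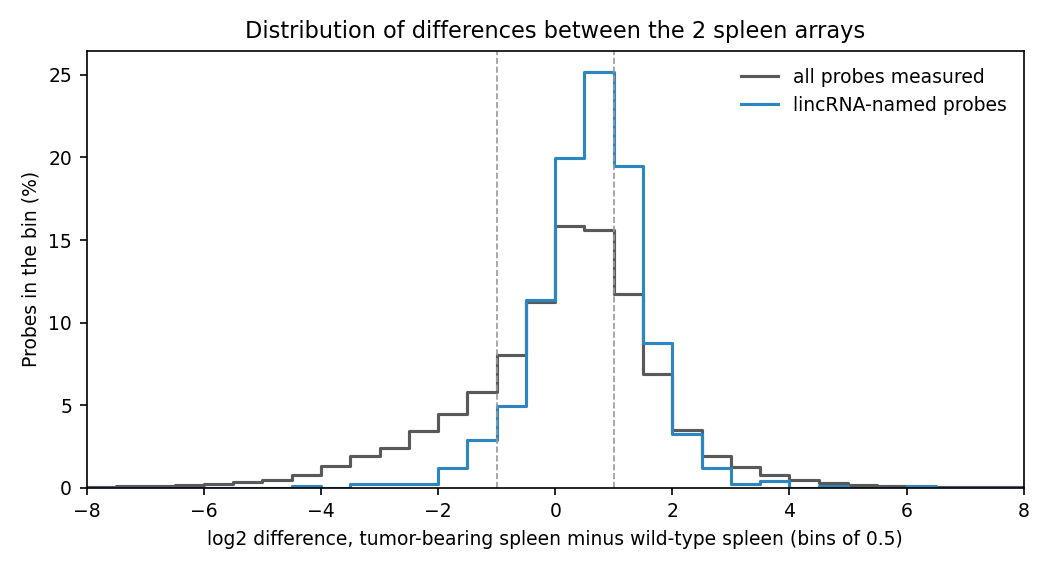
Distribution of log2 differences, tumor-bearing minus wild-type spleen, over the 42323 probes measured on both arrays (grey) and the 766 lincRNA-named probes among them (blue), as the percent of each set per bin of 0.5; dashed lines mark 2-fold, and bins beyond 8 in either direction are not drawn. The grey curve has the longer tail on the left, which the blue curve lacks.

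Among the 15 named genes, 3 read at least 2-fold higher in tumor-bearing spleen, 6 at least 2-fold lower and 6 lay within 2-fold. Over all probes 27.4% were past the limit upwards and 21.9% downwards. For 14 of the genes the spots of the 2 arrays, 15 to 20 usable on each, did not overlap after scaling. The other target probes have 1 spot per array, so no share of non-overlap over all probes can be set beside that count. The 15 were placed on the array as reference genes, so they are no sample of the transcriptome.

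Metabolic enzymes were the genes furthest up. Gk (NM_008194.3) encodes glycerol kinase, which phosphorylates glycerol to glycerol 3-phosphate at the entry to triglyceride synthesis and glycolysis. Its spots read 3119 to 3777 units with a median of 3463 in tumor-bearing spleen, and 416 to 542 with a median of 495 in wild-type spleen. The lowest spot of tumor-bearing spleen was thus 2.98 log2 units above the highest of wild-type spleen after scaling. Gk was 9.81-fold higher, at a log2 difference of 3.29 ± 0.14 (SD between spots, 1 array per group), and 2.56% of all probes measured had a larger difference. In the tumor its median was 590 units. After scaling its level there was 0.18, against -0.51 in wild-type and 2.78 in tumor-bearing spleen.

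G6pd2 (NM_019468.2) is an intronless relative of G6pdx, the gene of glucose-6-phosphate dehydrogenase, the NADPH-forming first step of the pentose phosphate pathway. Its spots ran from 32263 to 37645 units, median 34354, in tumor-bearing spleen and from 4611 to 5271, median 4960, in wild-type spleen, again with no overlap. The gene was 9.61-fold higher, at 3.26 ± 0.08, and its tumor median lay between the 2 at 14367 units. Ldhal6b (NM_175349.2), a lactate dehydrogenase A-like gene, was dim on both arrays, with 113 to 154 units, median 138, against 65.1 to 101 units, median 76.3. It differed by 1.25 ± 0.26, or 2.38-fold, and fell to 0.87, inside the 2-fold limit, under normexp background correction.

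The 2 genes past 9-fold upwards and the gene furthest down, Rpl13a, are shown with the 250 bases before their start (RefSeq, GRCm38.p6, 5′ to 3′ on the gene's strand), to set promoters of genes with opposite differences side by side. Capitals mark the E-box CACGTG and the CCAAT box (CCAAT or, on the other strand, ATTGG). The windows lie at chrX:85776820-85777069 on the minus strand for Gk, chr5:61808593-61808842 on the plus strand for G6pd2 and chr7:45128746-45128995 on the minus strand for Rpl13a.
Gk: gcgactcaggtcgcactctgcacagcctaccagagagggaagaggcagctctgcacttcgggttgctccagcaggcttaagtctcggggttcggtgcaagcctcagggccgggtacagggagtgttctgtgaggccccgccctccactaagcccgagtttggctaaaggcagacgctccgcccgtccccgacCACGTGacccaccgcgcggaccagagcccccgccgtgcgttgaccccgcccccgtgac
G6pd2: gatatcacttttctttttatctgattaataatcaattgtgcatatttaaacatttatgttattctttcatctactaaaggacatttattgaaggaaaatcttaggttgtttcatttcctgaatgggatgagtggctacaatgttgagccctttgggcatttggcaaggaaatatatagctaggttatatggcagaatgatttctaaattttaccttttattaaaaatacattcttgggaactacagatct
Rpl13a: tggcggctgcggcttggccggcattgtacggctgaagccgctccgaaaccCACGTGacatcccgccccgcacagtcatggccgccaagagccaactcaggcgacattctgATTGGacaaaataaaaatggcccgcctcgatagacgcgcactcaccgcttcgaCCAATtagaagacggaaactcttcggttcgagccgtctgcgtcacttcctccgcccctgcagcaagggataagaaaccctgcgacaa
A window was found for 13 of the 15 genes, Actb and Hsp90ab1 having none. The E-box, a site of basic helix-loop-helix factors, stood in 2 of the 13, namely Gk, which was 9.81-fold higher, and Rpl13a, which was 9.61-fold lower, and in 6.02% of all 32851 windows. The CCAAT box was matched 2 times in Rpl13a, in 5 of the 13 and in 33.8% of all windows, and the GC box GGGCGG, searched on both strands and not capitalised, 3 times in Gk, 2 times in Rpl13a, in 6 of the 13 and in 32.7% of all. The windows of G6pd2 and of Gusb, which was lower, held none of these motifs nor TATAAA (12.4% of all windows) or TGACGTCA (1.55%), both searched on both strands. GC content was 67.2% for Gk, 30.0% for G6pd2, 58.8% for Rpl13a and 49.6% for Gusb. The windows of G6pd2 and G6pdx, taken 250 bases before to 50 after the start, share an unbroken run of 27 bases that begins 10 bases before the annotated start of G6pd2 and 15 bases after that of G6pdx. With transcripts this alike, the G6pd2 probe may also read G6pdx.

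The genes furthest down were Rpl13a and Hsp90ab1, both of the translation and folding list. Rpl13a (NM_009438.4) encodes a protein of the large ribosomal subunit that also takes part in translational silencing after interferon-gamma. Its spots read 6735 to 7808 units, median 7192, in tumor-bearing spleen and 87123 to 101052 units, median 94224, in wild-type spleen. It was 9.61-fold lower, at -3.27 ± 0.07, with 4.65% of all probes measured further down. Its tumor median was 15219 units, nearer to that of tumor-bearing spleen.

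Hsp90ab1 (NM_008302.3), the constitutive cytosolic HSP90 chaperone, read 20566 to 26375 units, median 23352, against 230135 to 258374, median 246966. It was 7.59-fold lower, at -2.92 ± 0.11. Ppia (NM_008907.1), cyclophilin A, a peptidyl-prolyl isomerase, read 238023 to 251360 units, median 243520, against 524811 to 594564, median 553548. Its difference of -0.73 ± 0.06 lay within the limit although the spots did not overlap. Of the 3 measured genes of the translation and folding list, which holds 7, 2 were thus at least 2-fold lower and 0 higher, beside 21.9% lower and 27.4% higher of all probes, and Ppia lay within the limit.

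The other genes past the limit downwards were a lysosomal, a cytoskeletal, a nuclear and a purine salvage gene. Gusb (NM_010368.1), the lysosomal beta-glucuronidase, read 10404 to 11221 units, median 10766, against 72811 to 83067, median 76767. It was 5.23-fold lower, at -2.39 ± 0.07. Tuba1b (NM_011654.2), an alpha-tubulin of the microtubule, read 109748 to 119616 units, median 116462, against 469446 to 551679, median 487482. It was 3.14-fold lower, at -1.65 ± 0.08.

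Nono (NM_023144.2), a paraspeckle protein that binds RNA and DNA, read 20527 to 22750 units, median 21744, against 77852 to 90081, median 84285. It was 2.83-fold lower, at -1.50 ± 0.07. Hprt (NM_013556.2), which salvages hypoxanthine and guanine, read 47878 to 55374 units, median 52233, against 175635 to 196522, median 185557. It was 2.59-fold lower, at -1.37 ± 0.08. For each of these 4 genes the 2 arrays were far apart relative to their spots, the gap between the nearest spots running from 1.21 log2 units for Hprt to 2.24 for Gusb.

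The remaining genes lay within 2-fold, and their order around the median of all probes differed. Actb (NM_007393.3), cytoplasmic beta-actin, read 245572 to 264235 units, median 254850, against 207407 to 232594, median 219304, a difference of 0.67 ± 0.05. B2m (NM_009735.3), the light chain of MHC class I, had medians of 280751 and 294160 units and differed by 0.38 ± 0.06. Gapdh (NM_008084.2), a glycolytic dehydrogenase, had medians of 471446 and 495829 units and differed by 0.37 ± 0.08. B2m and Gapdh sat at percentiles 52.8 and 52.3 of all probes, so in the middle of the distribution, while their signals before scaling were slightly lower in tumor-bearing spleen, at -0.07 and -0.09.

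Tbp (NM_013684.3), the TATA-binding protein of the basal transcription machinery, had medians of 8121 and 12839 units and differed by -0.24 ± 0.08. Tfrc (NM_011638.3), the transferrin receptor that takes up iron and is high in erythroid precursors and dividing cells, had medians of 44563 and 67278 units and differed by -0.14 ± 0.08. It was the only named gene whose scaled spots overlapped between the 2 arrays. Both signs turned after quantile normalization, to 0.04 for Tbp and 0.21 for Tfrc.

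Counts by list are read beside the 27.4% higher and 21.9% lower of all probes, and all are of few genes. The 9 measured of 18 housekeeping genes comprised 0 higher, 3 lower (Rpl13a, Gusb and Hprt) and 6 within 2-fold, with a median of -0.24, set beside 0.29 over all probes. The cytoskeleton list had 2 of 5 genes measured, Tuba1b lower and Actb within the limit, and the list of nuclear factors 2 of 4, Nono lower and Tbp within it. The glycolysis and hypoxia list had 2 of 11, Ldhal6b higher and Gapdh within the limit. Pgk1, a member of this list and of the housekeeping list, has only control probes at its transcript ends and is not counted. Its 5′ probe differed by -1.93 and its 3′ probe by -0.56. The pentose phosphate list had G6pd2 alone and the glycerol and lipid list Gk alone. The lists of MDSC mediators, neutrophil granules and maturation, cytokines, interferon response and cell cycle had 0 members with a named probe.

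**Figure D2:**
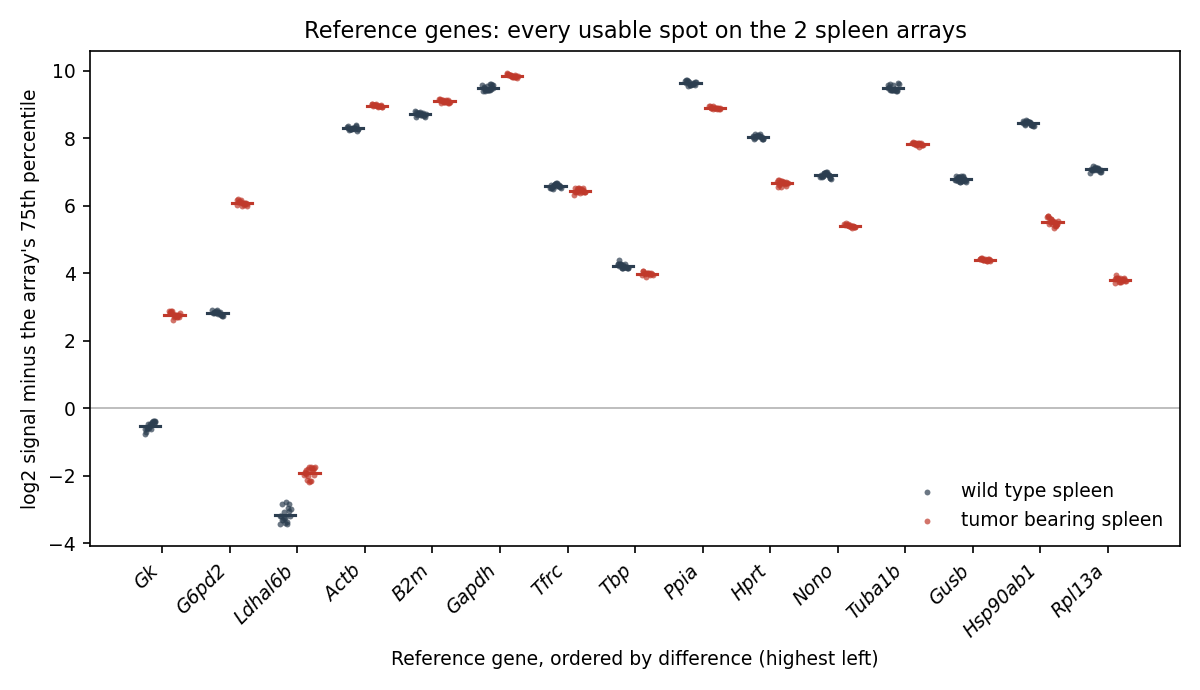
Every usable spot of the 15 named genes on the wild-type (dark) and tumor-bearing (red) spleen arrays, as log2 signal minus the array's 75th percentile; horizontal bars are means, and genes run from the highest difference (left) to the lowest (right). The spots of each array form a tight group, and the groups overlap only for Tfrc; heights of different genes are not comparable.

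Control probes at the transcript ends of Pgk1, a glycolytic kinase, did not move by the same amount. The 5′ probe read 11273 to 13862 units in tumor-bearing spleen against 58599 to 65766 in wild-type spleen, 3.81-fold lower at -1.93 ± 0.10, and the 3′ probe 236359 to 261051 against 482929 to 521028, at -0.56 ± 0.06. The 5′ and 3′ probes of Gapdh differed by 0.13 ± 0.08 and 0.30 ± 0.06. The part of RNA length in the differences above was not tested.

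The lincRNA-named probes had a different shape of distribution from the whole. Of 1836, 766 (41.7%) were well above background on both spleen arrays, against 69.5% of all target probes. Of these 766, 257 (33.6%) read at least 2-fold higher in tumor-bearing spleen and 38 (4.96%) at least 2-fold lower, beside 27.4% and 21.9% of all probes. Their median difference was 0.67, against 0.29, and 78.7% lay above 0, against 58.9% of all. Past 4-fold the picture on the upper side was reversed: 5.35% of lincRNA-named probes were at least 4-fold higher, less than the 8.79% of all probes, and 0.914% were at least 4-fold lower, against 11.6%. The lincRNA-named probes thus differed from the whole in the smaller share far below 0, and their share of large increases was not greater. Under normexp correction 144 (18.8%) were higher and 10 (1.31%) lower, beside 19.8% and 17.6% of all probes. With that setting the larger share of higher values was thus gone and the smaller share of lower values remained. Their median was still above that of all probes, at 0.50 against 0.31.

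The 3 name prefixes leaned the same way, although the labels and headers do not define these prefixes. Of 276 measured mouselincRNA probes, 87 (31.5%) read at least 2-fold higher and 15 (5.43%) at least 2-fold lower, around a median of 0.61. The 445 humanlincRNA probes split into 148 higher (33.3%) and 19 lower (4.27%), around a median of 0.69. The 45 MM9LINCRNAEXON probes split into 22 higher (48.9%) and 4 lower (8.89%), around a median of 0.97.

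The upward lean was present in each class of signal level. Among probes more than 3 log2 units below the 75th percentile, the median difference was 0.51 for 380 lincRNA-named probes and 0.32 for all, and from -3 to -1 it was 0.77 for 240 and 0.39 for all. From -1 to 1 it was 0.93 for 89 lincRNA-named probes and 0.34 for all. Among bright probes the 2 sets were furthest apart: from 1 to 3 the medians were 1.35 for 25 lincRNA-named probes and 0.21 for all. In that class 21 of the 25 were at least 2-fold higher and 0 lower, beside 34.7% and 32.1% of all probes. From 3 upwards the medians were 1.18 for 32 and -0.14 for all. In the dimmest class the shares higher were nearly alike, 21.8% of lincRNA-named and 20.2% of all probes. The shares lower there were 5.00% and 10.3%.

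**Figure D3:**
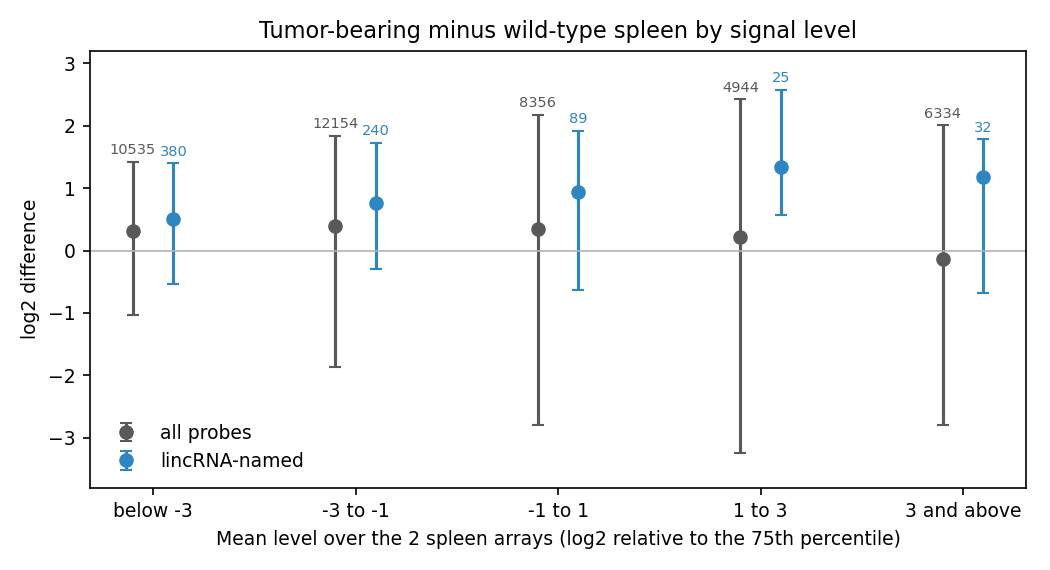
Median log2 difference (points) with the span from the 10th to the 90th percentile (bars) by mean level over the 2 spleen arrays, for all measured probes (grey) and lincRNA-named probes (blue), with the number of probes above each bar. The lincRNA medians rise from 0.51 in the dimmest class to 1.35 in the class from 1 to 3, while the lower end of the grey bars reaches far below the blue.

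The 4 mouselincRNA probes furthest up all had the minus sign in their name, but the plus probe of mouselincRNA1377 was close behind at 2.65. Each lincRNA-named probe given here has 1 spot per array. The error given is built in the same way from repeated spots of other probes in a like range of scaled levels, and is rough for dim probes. From -2 to 0 it rests on 5 SDs that ran from 0.12 to 0.77. Below -2 it rests on 11 that ran from 0.09 to 0.64. Probe mouselincRNA1099-_P1 read 1668 units in tumor-bearing spleen, 35.3 in wild-type spleen and 736 in the tumor, 64.8-fold higher in tumor-bearing than wild-type spleen at 6.02 ± 0.37. The wild-type signal of this probe was dim, and under normexp correction the difference was 4.47. Probe mouselincRNA0996-_P1 read 898, 53.0 and 428 units in the same order of arrays, a difference of 4.54 ± 0.37 that came to 3.35 under normexp. Probes mouselincRNA0597-_P1 and mouselincRNA0063-_P1 differed by 2.79 ± 0.50 and 2.70 ± 0.50 (2.12 and 2.06 under normexp), and for the latter the tumor signal of 896 units was above that of tumor-bearing spleen, 458 units.

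Downwards, all 4 mouselincRNA probes of the largest differences had the plus sign, but the minus probe of mouselincRNA0052 was close behind at -1.84. Probe mouselincRNA1040+_P1 read 105 units in tumor-bearing spleen, 2380 in wild-type spleen and 134 in the tumor, 16.5-fold lower at -4.04 ± 0.37. Probe mouselincRNA0706+_P1 was bright, with 4857, 41692 and 2570 units, and 6.26-fold lower at -2.65 ± 0.17. Both were thus lower than in wild-type spleen on each of the other arrays. Probe mouselincRNA0735+_P1 differed by -2.28 ± 0.37, and mouselincRNA1188+_P1 by -1.90 ± 0.47 at a tumor-bearing signal of 16.3 units, close to the dimmest detected, with a value of -0.37 under normexp correction.

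For the humanlincRNA probes furthest up, tumor-bearing spleen stood above both other arrays. The same held for the named probes furthest up of the other prefixes, except mouselincRNA0063-_P1. Probe humanlincRNA0825-_P1 read 735 units in tumor-bearing spleen, 63.8 in wild-type spleen and 127 in the tumor, a difference of 3.98 ± 0.37 that came to 3.01 under normexp. Probe humanlincRNA0498-_P1 read 1759, 184 and 253 units, at 3.71 ± 0.41, and humanlincRNA0955-_P1 read 495, 55.4 and 76.7 units, at 3.61 ± 0.50 (2.60 under normexp). Probe humanlincRNA0997+_P1 was the brightest of them, with 4447, 608 and 1237 units, and 10.0-fold higher at 3.33 ± 0.41.

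Downwards, humanlincRNA0324-_P1 read 1681 units in tumor-bearing spleen, 21733 in wild-type spleen and 714 in the tumor, 9.43-fold lower at -3.24 ± 0.17. Probe MM9LINCRNAEXON10569-_P1 had a like course, with 1759, 25257 and 607 units and a difference of -3.39 ± 0.17, and whether both probes read the same transcript was not tested. The other humanlincRNA probes named here were dimmer: humanlincRNA0518+_P1 differed by -2.66 ± 0.47, humanlincRNA1347-_P1 by -2.14 ± 0.50 and humanlincRNA0635+_P1 by -1.94 ± 0.41. The tumor-bearing signal of humanlincRNA0518+_P1 was 16.4 units, near the dimmest detected, and its difference came to -1.09 under normexp correction. Probe humanlincRNA1347-_P1 was not well above background in the tumor and differed by -0.67 under that setting.

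The largest upward differences of the MM9LINCRNAEXON probes were smaller than those of the other prefixes, in a smaller set of 45 measured probes. Their 90th percentile of 1.78 was not smaller, beside 1.71 for mouselincRNA and 1.68 for humanlincRNA. Probes MM9LINCRNAEXON10612+_P1 and MM9LINCRNAEXON10495-_P1 were higher by 2.26 ± 0.50 and 2.19 ± 0.50, from wild-type signals of 51.7 and 51.1 units, and by 1.52 and 1.31 under normexp. Probes MM9LINCRNAEXON11752+_P1 and MM9LINCRNAEXON11939-_P1 were higher by 1.94 ± 0.41 and 1.87 ± 0.41, and the latter read 1399 units in tumor-bearing spleen, 525 in wild-type spleen and 238 in the tumor. After MM9LINCRNAEXON10569-_P1 the lowest were MM9LINCRNAEXON11274+_P1 at -1.75 ± 0.50, MM9LINCRNAEXON11125+_P1 at -1.45 ± 0.50 and MM9LINCRNAEXON11382-_P1 at -1.04 ± 0.47. Under normexp correction these 3 came to -0.97, -0.75 and -0.22, inside the 2-fold limit.

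**Figure D4:**
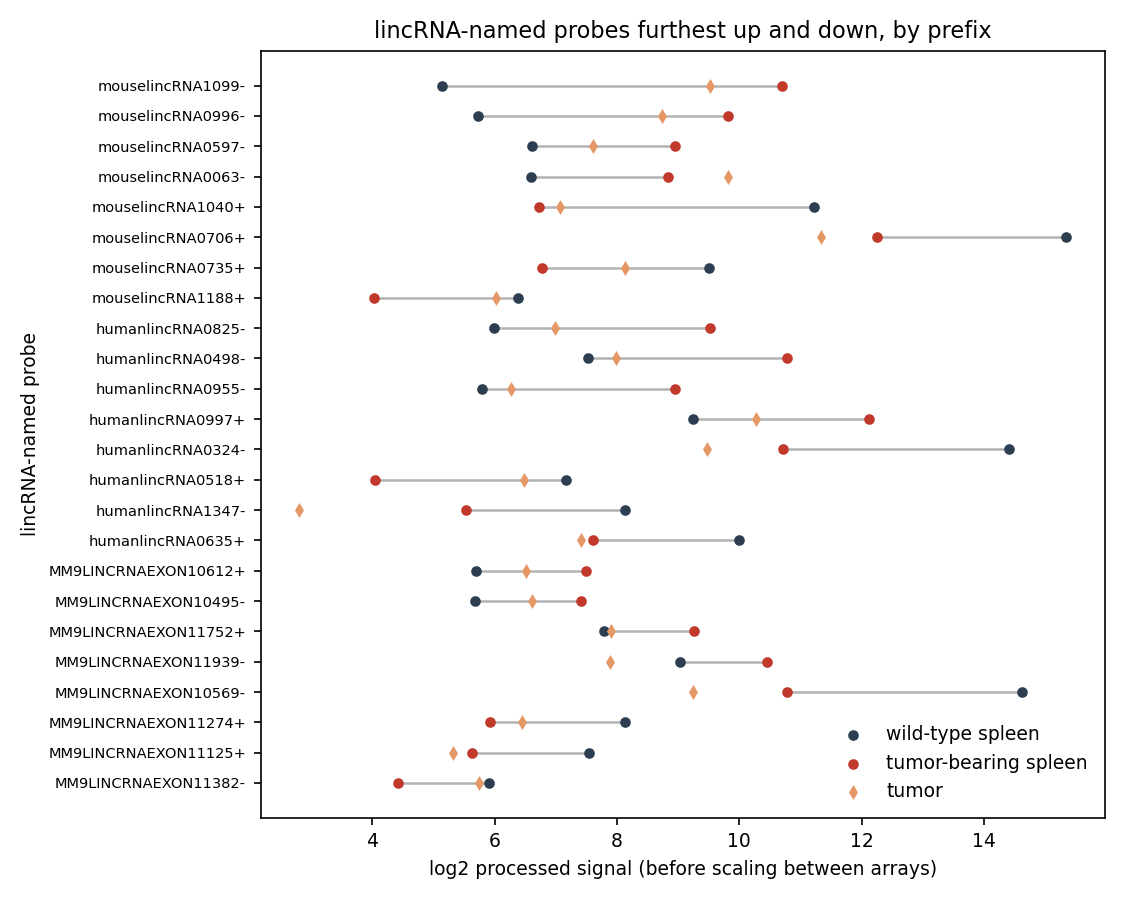
log2 processed signal of the 4 lincRNA-named probes furthest up and furthest down for each prefix, in wild-type spleen (dark), tumor-bearing spleen (red) and tumor (orange diamonds), 1 spot each, before scaling between arrays; grey lines join the 2 spleen arrays. The tumor value of humanlincRNA0825-_P1, humanlincRNA0498-_P1 and humanlincRNA0955-_P1 lies above wild-type spleen but nearer to it than to tumor-bearing spleen. That of mouselincRNA1040+_P1 lies near tumor-bearing spleen.

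The probe names pair up, with a plus and a minus probe of the same number at 864 mouselincRNA and humanlincRNA loci. The sources used here do not say that the sign is the strand. Both probes of a locus were measured on both spleen arrays at 151 loci, only the plus or only the minus probe at 411 and neither at 302. Plus and minus probes leaned alike: of 351 plus probes measured, 109 (31.1%) were higher and 21 (5.98%) lower, and of 370 minus probes, 126 (34.1%) were higher and 13 (3.51%) lower.

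Within a locus, however, the differences of the plus and minus probe were unrelated in size. Over the 151 loci Pearson's r was 0.0011 and Spearman's rho 0.040, given as a description, since the points share both arrays and many are dim. At the 39 loci where both probes were above the median level of lincRNA-named probes, a choice made after the values were seen, r was 0.062 and rho 0.22. Both probes were higher at 17 loci (10 under normexp correction) and both lower at 0. As only 5.98% of measured plus and 3.51% of measured minus probes were lower, unrelated probes would also rarely both be lower. With 31.1% of plus and 34.1% of minus probes higher, unrelated probes would both be higher at some loci too. With the partner within 2-fold, 1 probe was higher at 50 loci and lower at 13, and both lay within 2-fold at 63. At 8 loci the probes went opposite ways past 2-fold, a number that fell to 2 with normexp correction.

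Those 2 loci were opposite under every scaling and background setting tried. At mouselincRNA1040 the plus probe fell from 2380 units in wild-type to 105 in tumor-bearing spleen, at -4.04, while the minus probe read 603 and 1588 units, at 1.85. At mouselincRNA0706 the plus probe differed by -2.65, as above, while the minus probe read 849 units in wild-type and 1489 in tumor-bearing spleen, at 1.27. In the tumor the minus probes of these loci read 294 and 771 units. At mouselincRNA1188, where the dim plus probe lost its difference under normexp correction, the minus probe was bright and read 61579 units in tumor-bearing, 31996 in wild-type spleen and 15203 in the tumor, at 1.40. Of the loci with both probes higher, humanlincRNA0955 had 1.16 for the plus and 3.61 for the minus probe and humanlincRNA1094 had 1.31 and 2.88. The partners of the 4 mouselincRNA probes furthest up were not well above background on either spleen array.

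**Figure D5:**
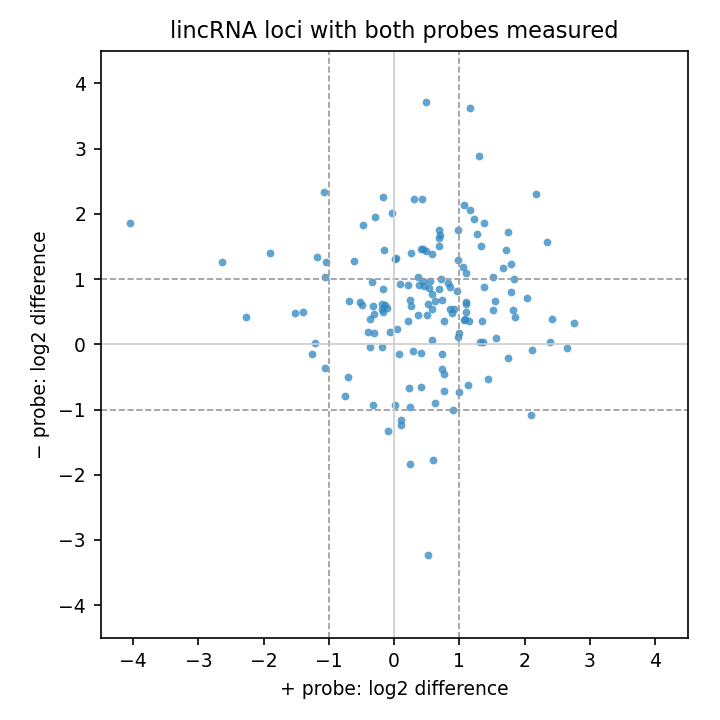
log2 difference, tumor-bearing minus wild-type spleen, of the plus probe (x axis) and minus probe (y axis) of the 151 lincRNA loci with both measured; dashed lines mark 2-fold. The lower left corner, where both probes would be lower, is empty, and few probes of either sign were lower. The point furthest left is mouselincRNA1040.

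Some lincRNA-named probes were well above background on only 1 of the spleen arrays. With tumor-bearing spleen this held for 136, of which 72 were at least 2-fold higher when set against the dimmest detected wild-type signal, and with wild-type spleen for 128, of which 22 were at least 2-fold lower in tumor-bearing spleen. Over all probes the numbers were 1419 of 2541 and 1941 of 4438. Probe humanlincRNA1998-_P1 read 155 units in tumor-bearing spleen, at least 12.9-fold higher, and 188 units in the tumor. Probes mouselincRNA1514+_P1 and mouselincRNA0733+_P1 were at least 9.58-fold and at least 9.42-fold higher. On the wild-type side, mouselincRNA0552+_P1 read 260 units and was at least 11.8-fold lower in tumor-bearing spleen, MM9LINCRNAEXON11712-_P1 read 232 units and was at least 10.5-fold lower, and humanlincRNA1451+_P1 read 163 units and was at least 7.37-fold lower. These 3 were not well above background in the tumor either.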

How the data were processed

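Total RNA (1 µg labelled per array) of sorted PMN-MDSCs was read in 1 colour (Cy3). Per the file headers, the deposited intensity values come from Agilent Feature Extraction 11.0.1.1, with background subtraction and spatial detrending done per array and no scaling across arrays; multiplicative detrending is recorded for the wild-type but not the tumor-bearing spleen array. The deposited value table holds log2 values that run in the direction of the scanner signals, by a scaling that is not stated; both spleen columns have a median of 6.40.

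Control and negative probes and outlier-flagged spots were dropped. From log2 signals the 75th percentile of an array's target probes was subtracted, and spots of a probe were averaged. A probe counted as measured if each array flagged over 50% of its spots as well above background. Where it was so on 1 array only, a bound was taken against the higher of the dimmest detected signal and the dim probe's own. Error for single-spot probes came from probes with at least 8 spots, 90% of them well above background. No test was possible. Named are all 15 genes with an accession (all matched a symbol in the RefSeq table of GRCm38.p6, without versions) and, per lincRNA prefix, the 4 probes furthest up and down, with 3 bounds per direction over all prefixes. The members and lists were chosen with earlier results of these data known. AK036396 and Fcnb, named in the series title, were not analysed here. Alternatives are described in the closing section. The counting was tested on simulated data. Python 3.11.15, numpy 2.4.6, pandas 2.3.3, matplotlib 3.10.9, R 4.3.3 and limma 3.58.1 (normexp, offset 50) were used.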

Additional observations from a re-analysis of the deposited data

Results flagged for a closer look

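Some control probes outside the comparison were also brighter in tumor-bearing than in wild-type spleen. Those named next were picked because each is no target of the comparison yet lay at least 2-fold above the wild-type array. ERCC-00012_90 differed by 1.13, ERCC-00062_278 by 1.39, ETG05_66023 by 1.104 and GE_BrightCorner by 1.40, of which 0.68, 0.94, 0.65 and 0.94 were present before scaling. By contrast, 35 of 35 wild-type spots of (+)E1A_r60_a107 but 2 of 34 tumor-bearing ones were detected, which makes it at least 12.1-fold lower in tumor-bearing spleen. The end probes of Pgk1 and Gapdh are also control probes, and the mouse 5′ probe of Pgk1 differed by -1.93. The human and rat 5′ probes of Pgk1 differed by -1.99 and -1.94, and the rat 3′ probe by -1.49 ± 1.00. Apart from end probes, the other control probes detected in most spots on both arrays lay within 2-fold. ERCC-00053_71 differed by 0.97, (+)E1A_r60_a22 by 0.91, ERCC-00104_60 by 0.18 and ETG05_36762 by 0.09. ERCC-00097_63 differed by -0.11 and (+)E1A_r60_3 by -0.38. The part of these probes' sources in the differences of the target probes was not tested.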

How the results depend on the processing

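No paired analysis was possible because each group has 1 array, and for the same reason no replicate could be left out. Over all probes the higher and lower counts stayed within 1.5 times under quantile normalization, the authors' value table, other filters, both background alternatives and the 1.5-fold limit. Some settings made lower probes the more frequent: scaling on the detected probes' median (9836 higher, 10143 lower, median 0.14) and the 4-fold limit (3722 higher, 4906 lower). Without a filter the median came to 0.27. The lincRNA-named probes kept more higher than lower values throughout. Without a filter 488 (26.6%) of them were higher and 184 (10.0%) lower (median 0.37), beside 25.4% and 22.5% of all probes. The larger share of higher values was thus nearly gone with that setting. Under normexp correction they numbered 144 (18.8%) and 10 (1.31%) (median 0.50), beside 19.8% and 17.6%. At 1.5-fold they numbered 416 (54.3%) and 69 (9.01%), beside 40.1% and 28.3%. At 4-fold they numbered 41 (5.35%) and 7 (0.914%), beside 8.79% and 11.6%. Scaling on the detected probes' median brought the median of the lincRNA-named probes to 0.52. Among those above their own median level it was 0.92, with 173 (45.2%) higher and 19 (4.96%) lower, beside 27.4% and 21.9% of all probes at any level. Of the 9 genes past 2-fold, 8 kept direction and size limit under 8 alternatives, Ldhal6b being the exception, and of 24 named lincRNA probes 19 did under 7 alternatives (6 for humanlincRNA1347-_P1); the sign of Tfrc and Tbp, within 2-fold, turned. Under normexp correction 14 of the 24 moved by over 1.5-fold. Single arrays, single spots and dim signals limit the lincRNA values.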

Other observations

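Probes with the array maker's prefix ASMM10UP, which the headers do not define, also had fewer lower than higher values. Both spleen arrays measured 375 (40.6%) of its 923 probes. In tumor-bearing spleen 133 (35.5%) read at least 2-fold above and 29 (7.73%) at least 2-fold below wild-type spleen, around a median of 0.69. At least 4-fold higher were 8.27%, beside 8.79% of all probes and 5.35% of the lincRNA-named ones. Among 41167 measured ASMM10P probes the shares were 27.2% and 22.3%, around a median of 0.28. The share past the limit downwards was thus between 4.27% and 8.89% in the sets mouselincRNA, humanlincRNA, MM9LINCRNAEXON and ASMM10UP.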
